A study of Mus musculus with 3 samples.

Results

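Chondrogenic cells of the developing mouse palate were chosen by their RNA. Among cell barcodes with at least 500 detected genes, a cell was counted as chondrogenic when it held a UMI (unique molecular identifier, the tag that marks 1 captured RNA molecule) of at least 3 of 8 cartilage genes, Col2a1, Col9a1, Col9a2, Col9a3, Matn1, Matn3, Acan and Cnmd, called the panel here. This gave 295 chondrogenic cells of 8107, with 145 of 3692 at E13.5 (E for embryonic day), 101 of 1775 at E14.5 and 49 of 2640 at E15.5. The panel values therefore define these cells and describe them, and nothing that follows is a test of them. The source was the palatal shelves, the outgrowths of the upper jaw that form the secondary palate, of wild-type C57BL/6J embryos, profiled by droplet sequencing of RNA from single cells at the 3 stages. Each stage is 1 library from 3 embryos whose tissue was pooled before enzymatic dissociation and methanol fixation. With 1 library per stage there was no replicate and no test between stages, and each stage stands for 1 pool of embryos. Intervals in parentheses are exact 95% intervals and cover counting error only. A range after the median of a gene list is the exception. Its limits are the medians of the interval limits of the list's genes, and it has no set coverage. Values given in threes are in the order E13.5, E14.5, E15.5.

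Cartilage forms when mesenchymal cells condense and switch on the transcription factor Sox9, which acts with Sox5 and Sox6 on genes of the cartilage matrix. That matrix is a network of type II, IX and XI collagen fibrils filled with aggrecan, a large sulphated proteoglycan held on hyaluronan by link protein, with matrilins as adaptors between the fibrils and the proteoglycan. In growing long bones chondrocytes later enlarge and express type X collagen before bone replaces them. The nasal septum and the cartilages of the cranial base lie next to the palatal shelves.

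The panel genes encode parts of this matrix. Col2a1 (ENSMUSG00000022483, chromosome 15, 97975602 to 98004695, minus strand) encodes the chain of type II collagen, and Col9a1 (chromosome 1, 24177610 to 24252684, plus strand), Col9a2 (chromosome 4, 121039385 to 121055322, plus strand) and Col9a3 (chromosome 2, 180597790 to 180622189, plus strand) encode the chains of type IX collagen on its surface. Matn1 (chromosome 4, 130944385 to 130955475, plus strand) and Matn3 (chromosome 12, 8947929 to 8972028, plus strand) encode matrilins, Acan (chromosome 7, 79053483 to 79115099, plus strand) encodes aggrecan, and Cnmd (chromosome 14, 79637690 to 79662170, minus strand) encodes chondromodulin, a membrane glycoprotein of avascular cartilage that inhibits vessel growth. These positions are on GRCm38 from the GENCODE M21 annotation.

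The 250 bases before the RefSeq start of 2 panel genes, on GRCm38.p6 and read 5′ to 3′ on the strand of the gene, are shown because Matn1 and Cnmd differ in base composition although both belong to the panel. Capitals mark the GC box searched, GGGCGG on either strand.
Matn1, chr4:130944135-130944384, plus strand: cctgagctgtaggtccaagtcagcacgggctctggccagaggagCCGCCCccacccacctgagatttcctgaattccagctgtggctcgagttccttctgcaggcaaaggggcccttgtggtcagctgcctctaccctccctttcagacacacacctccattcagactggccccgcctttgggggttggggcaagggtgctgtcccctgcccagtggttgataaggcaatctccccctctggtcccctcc
Cnmd, chr14:79662184-79662433, minus strand: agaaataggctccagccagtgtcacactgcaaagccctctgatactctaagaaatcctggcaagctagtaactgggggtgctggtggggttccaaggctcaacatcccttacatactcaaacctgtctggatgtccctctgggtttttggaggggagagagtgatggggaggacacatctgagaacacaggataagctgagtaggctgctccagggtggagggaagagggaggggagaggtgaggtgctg
The Matn1 stretch was 62.0% G and C with 4 CG pairs and held 1 GC box, and the Cnmd stretch was 54.0% with 0 CG pairs and no GC box. RefSeq entries were matched for 6 of the 8 panel genes, in 7 promoters, and 4 of these 7 (Acan, Col9a2, Matn1 and Matn3) held a GC box, against 32.7% of 32851 mouse promoters of the same length. The SOX core letters ACAAAG and ACAATG, searched on both strands, were in 0 of the 7 and in 16.5% and 10.7% of all promoters, and TATAAA was in 0 of the 7 and in 12.4%. A match is a description of these letters and not of a site.

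Chondrogenic cells made up 3.93% (3.32 to 4.61), 5.69% (4.66 to 6.87) and 1.86% (1.38 to 2.45) of the cells at the 3 stages, with the highest share at E14.5 and the lowest at E15.5. These 3 intervals do not overlap, but each is 1 dissection, and how much cartilage next to the shelf was taken cannot be told apart from a change with stage. The number of panel genes seen in a cell depends on its depth. After each cell was thinned to 1500 UMIs, with 1342, 682 and 977 shallower cells left out, 69 of 2350 (2.94%, 2.29 to 3.70), 52 of 1093 (4.76%, 3.57 to 6.19) and 26 of 1663 (1.56%, 1.02 to 2.28) met the rule. The order of the stages was the same, but the intervals at E13.5 and E14.5 then overlapped. Chondrogenic cells had medians of 3692, 2822 and 3103 UMIs, and the other cells 1947, 1877.5 and 1970.

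The cells differed in how many panel genes they carried. At E14.5 the counts of cells with 3, 4, 5, 6, 7 and 8 panel genes were 14, 12, 18, 17, 18 and 22, and at E15.5 they were 17, 1, 8, 4, 15 and 4. At E13.5 they were 40, 44, 27, 16, 12 and 6, so that most cells lay near the limit. At least 5 panel genes were seen in 61 of 145 cells at E13.5 (42.1%), in 75 of 101 at E14.5 (74.3%) and in 31 of 49 at E15.5 (63.3%). Just outside the limit, 91, 68 and 45 cells held 2 panel genes, with a median of 892, 935 and 836 panel UMIs per 1000000 UMIs of the cell, and just inside it the cells with 3 had 1539.8, 722 and 1259. Chondrogenic cells held 77.3%, 86.8% and 74.1% of all panel UMIs of their libraries. Cells with at least 3 endothelial or myeloid markers, cell types that should lack cartilage RNA, met the rule in 0 of 34, 5 of 113 and 1 of 140 cases, or 0 of 31, 2 of 105 and 0 of 137 without cells over 20000 UMIs. Their median depths were 3901, 2544 and 2739.5 UMIs.

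**Figure D1:**
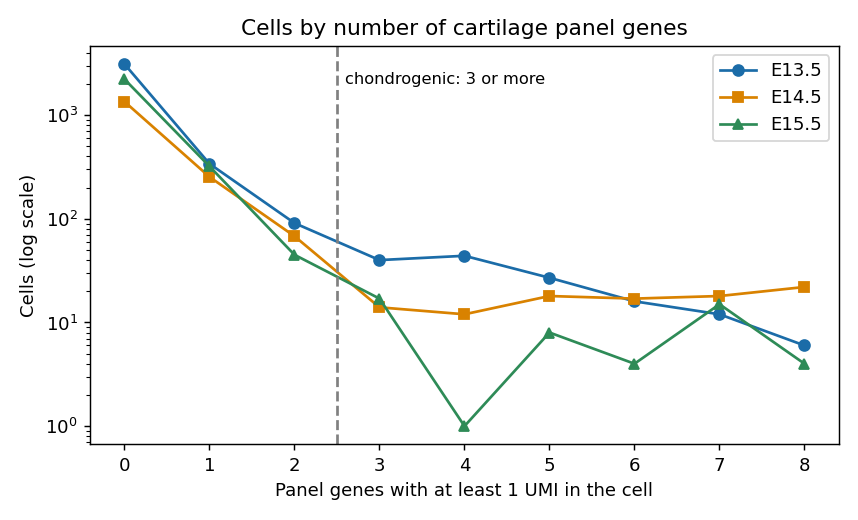
Number of cells (log scale) by the number of panel genes with at least 1 UMI, 1 line per stage, with a dashed line at the limit of 3. The E14.5 line is nearly level from 3 to 8 panel genes (12 to 22 cells), while the E13.5 line falls from 40 to 6.

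Several facts of the libraries touch every value. Total depth was 11472663, 5293977 and 8313677 UMIs, spread over 4236, 2079 and 3113 barcodes. Of the chondrogenic cells, 18 (13, 4 and 1) held over 20000 UMIs and together 41.8%, 32.0% and 24.9% of the UMIs of chondrogenic cells, and 10, 4 and 1 of them carried at least 3 markers of at least 3 cell types at once. At least 3 of 8 neuronal markers were seen in 61 of 145 chondrogenic cells at E13.5, in 10 of 101 at E14.5 and in 5 of 49 at E15.5, with summed levels of 2109, 581 and 272 CPM (UMIs per 1000000 of the summed UMIs of the cells) against 2895, 769.8 and 712 CPM in all other cells. Of the 8 neuronal markers, 0, 0 and 1 had no UMI in the chondrogenic cells. At least 3 of 7 glial markers were seen in 3, 7 and 8 cells (2.07%, 6.93% and 16.3% of the chondrogenic cells). Of mesenchymal cells 0%, 0.53% and 0.83% carried them, and of all other cells 0.56%, 1.49% and 1.20%. Their summed levels were 129, 179 and 276 CPM in chondrogenic and 93.9, 27.6 and 26.6 CPM in mesenchymal cells. No setting left out cells with glial markers alone. At least 3 of 8 epithelial markers were seen in 11, 9 and 3 chondrogenic cells, and at least 3 of 8 otic epithelial markers in 2, 3 and 0. The part of such RNA in each result was not tested, and values without cells over 20000 UMIs or without cells carrying at least 3 neuronal markers (84, 91 and 44 chondrogenic cells remained), both chosen after seeing the data, are given beside some of the results they move. Without cells over 20000 UMIs, of the genes of the fixed lists at 20 CPM or more, 32 of 205 at E13.5 were over 1.5 times higher and 4 lower, 0 of 247 at E14.5 higher and 8 lower, and 0 of 248 at E15.5 higher and 19 lower. Barcodes shared between libraries numbered 3, 1 and 1 for the 3 pairs, and none was chondrogenic.

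The panel genes were examined first, as a description of the chosen cells. Col2a1 stood at 806 (755 to 859.7), 2529 (2399.8 to 2662) and 2322 (2140.0 to 2516) CPM, from 931, 1444 and 598 UMIs in 142, 96 and 41 cells. It had the most UMIs of the panel genes at each stage, and its level at E13.5 lay below both later intervals. Without cells over 20000 UMIs it stood at 1270.1, 3589 and 3072 CPM, above the main value at each stage, and at E13.5 all 8 panel genes were over 1.5 times their level in all chosen cells. Matn1 differed most between the stages, with 89.2 (72.8 to 108), 697 (630.1 to 769) and 478 (397 to 570.0) CPM, a ratio of E14.5 to E13.5 of 7.81 (6.28 to 9.80). Acan stood at 134, 555 and 454 CPM and Cnmd at 172, 489 and 346 CPM. The type IX chains stood at 351, 641 and 664 CPM (Col9a1), 147, 595 and 637 CPM (Col9a2) and 277, 786 and 586 CPM (Col9a3). Matn3 had the fewest UMIs, with 29.4, 63.0 and 50.5 CPM from 34, 36 and 13 UMIs. All 8 genes were lower at E13.5 than at E14.5 and E15.5, and 6 of the 7 that reached 100 CPM were at least 2-fold higher at E14.5, where 9.12% of 2578 genes were and 7.49% were at least 2-fold lower. Col9a1 was the exception, with a ratio of 1.83 (1.58 to 2.11). Without cells carrying neuronal markers the log2 ratios of E14.5 to E13.5 shrank from 1.65 to 0.96 for Col2a1, from 2.04 to 1.31 for Acan, from 1.50 to 0.51 for Cnmd and from 2.95 to 2.53 for Matn1. Matn1, Acan and Col9a2 stayed past 2-fold in these remaining cells, and Cnmd was no longer lower at E13.5 than at E15.5 (-0.07 as the log2 ratio). Between E14.5 and E15.5 no panel gene passed 2-fold (4.46% of 2555 genes were at least 2-fold higher and 3.68% lower), and Matn1, Col9a3 and Cnmd were lower at E15.5 with intervals that do not overlap those of E14.5.

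**Figure D2:**
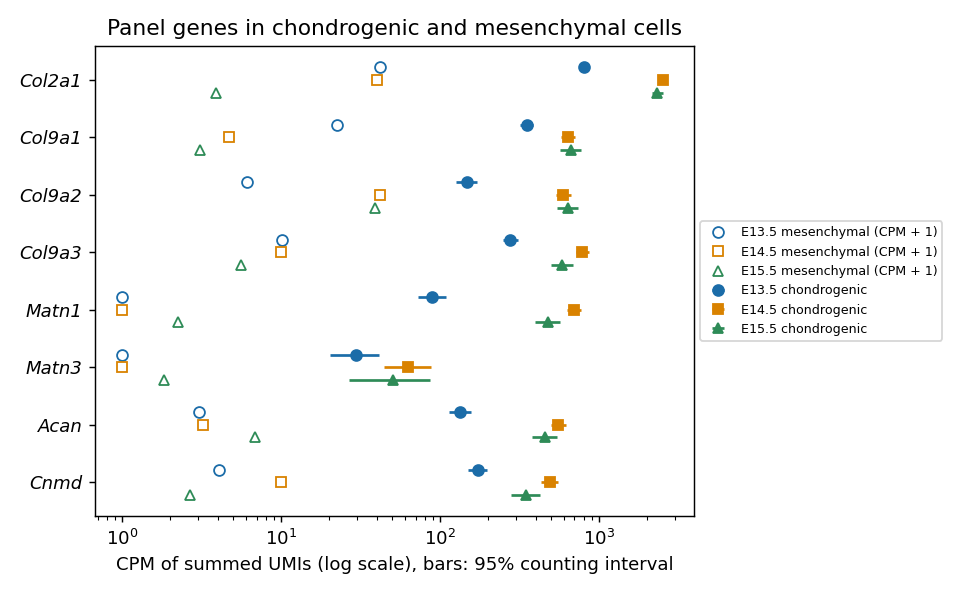
CPM of summed UMIs (log scale) of the 8 panel genes in chondrogenic cells (filled, with exact 95% Poisson intervals) and mesenchymal cells (open, 1 CPM added so that levels of 0 can be drawn). All filled E13.5 points lie left of those of the later stages, and all open points lie below 50 CPM.

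Mesenchymal cells served as the main set for comparison. They were cells outside the panel rule with UMIs of at least 3 of Prrx1, Prrx2, Twist1, Twist2, Pdgfra, Msx1, Osr2 and Lum, without 3 of 10 osteogenic markers, and numbered 156, 380 and 604. Osteogenic cells, with 3 of those 10 markers, numbered 35, 150 and 247. The contrast with mesenchymal cells was fixed in part by the rule, so the ratios describe the chosen cells and carry no test. In it, 1.85% of 2377 genes at E13.5, 4.05% of 2370 at E14.5 and 5.52% of 2538 at E15.5 were at least 2-fold higher in chondrogenic cells (genes reaching 100 CPM in either kind of cell), and 1.3%, 2.57% and 3.03% at least 2-fold lower. With cells over 20000 UMIs left out of both sets the balance turned at the later stages, with 70 of 2426, 135 of 2459 and 149 of 2482 genes higher and 39, 154 and 158 lower.

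Most well-detected cartilage matrix genes that the rule did not use were higher in the chondrogenic than in the mesenchymal cells at all 3 stages. Of this list of 26 genes, 25 were found. Of those at 100 CPM in either kind of cell, 5 of 7, 8 of 10 and 9 of 11 were at least 2-fold higher than in mesenchymal cells and 0 at least 2-fold lower, and the median log2 ratio (1 CPM added, genes averaging at least 10 CPM) was 2.67, 4.13 and 4.10, beside -0.01, 0.02 and 0.02 over all genes. With cells over 20000 UMIs left out, 8 of 9, 10 of 12 and 11 of 13 were at least 2-fold higher and 0, 1 (Vcan at E14.5) and 0 lower, with a median of 3.26 at E13.5. In those cells the E13.5 levels were 341 CPM for Hapln1, 2208 for Col11a1, 117 for Col11a2, 232 for Matn4, 358 for Mia and 101 for Cytl1, each over 1.5 times the level in all chosen cells. Hapln1, the link protein (chromosome 13, 89539796 to 89611652, plus strand), stood at 226 (199 to 255), 394 (344 to 449) and 338 (271 to 417) CPM, against 7.14, 21.6 and 18.3 CPM in mesenchymal cells. The ratios were 31.6 (15.1 to 79.5), 18.2 (12.3 to 27.8) and 18.5 (12.7 to 27.2), and it ranked first by the lowest log2 ratio of the 3 stages among genes outside the panel that reached 100 CPM in either kind of cell at every stage. Col11a2 and Cytl1, which had higher ratios, were under 100 CPM at E13.5 and so were not ranked, and without cells over 20000 UMIs they reached it and came before Hapln1. Col11a1, a chain of type XI collagen inside the type II fibril (chromosome 3, 114030540 to 114220718, plus strand), stood at 1429.6 (1361 to 1500.3), 2779 (2644 to 2919) and 3235 (3019 to 3462) CPM. It had the most UMIs of the list, and mesenchymal cells also held 238, 593 and 665 CPM. Its partner Col11a2 (chromosome 17, 34039437 to 34066685, plus strand) stood at 73.6, 543 and 489 CPM against 1.02, 3.73 and 3.32 CPM. Between E13.5 and E14.5, 6 of 10 genes of the list at 100 CPM were at least 2-fold higher and 0 lower, where 9.12% of 2578 genes were higher and 7.49% lower. The median log2 ratio was 1.31, beside 0.86 in mesenchymal cells. Without cells carrying neuronal markers that median was 0.60, and Hapln1 and Col11a1 had log2 ratios of 0.28 and 0.23, whereas Col11a2 kept 2.00. Over the later interval the median was 0.07 in all chosen cells, 0.74 (0.09 to 1.20) in cells with at least 4 panel genes and 0.61 (-0.09 to 1.11) in those with at least 5.

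Matn4, a matrilin outside the panel, stood at 149, 397 and 373 CPM against 8.16, 16.4 and 20.8 CPM in mesenchymal cells. Mia, a small secreted protein also known as cartilage-derived retinoic acid-sensitive protein, stood at 225, 525 and 357 CPM against 32.6, 14.9 and 15.8 CPM, and 85 of its 300 UMIs at E14.5 came from 1 cell. Col27a1, a fibrillar collagen of cartilage, stood at 145, 473 and 497 CPM against 34.7, 80.5 and 96.7 CPM. Snorc, a small membrane proteoglycan of chondrocytes, was seen in 11, 39 and 11 cells, at 13.9, 142 and 77.7 CPM, and mesenchymal cells held 1.02, 0.746 and 0 CPM. Susd5 stood at 52.0, 110.3 and 120.4 CPM and the secreted factor Cytl1 at 59.7, 96.3 and 101 CPM, each with at most 4.47 and 1.02 CPM in mesenchymal cells. Comp, a glycoprotein of cartilage and tendon, rested on few UMIs (9, 15 and 21) and stood at 7.79, 26.3 and 81.6 CPM. Not every gene of the list set the cells apart. Vcan, the proteoglycan of loose mesenchyme that precedes aggrecan, stood at 490.1, 457 and 443 CPM in chondrogenic cells and 537, 798 and 695 CPM in mesenchymal cells. It was thus lower at E14.5 and E15.5 and differed little at E13.5.

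**Figure D3:**
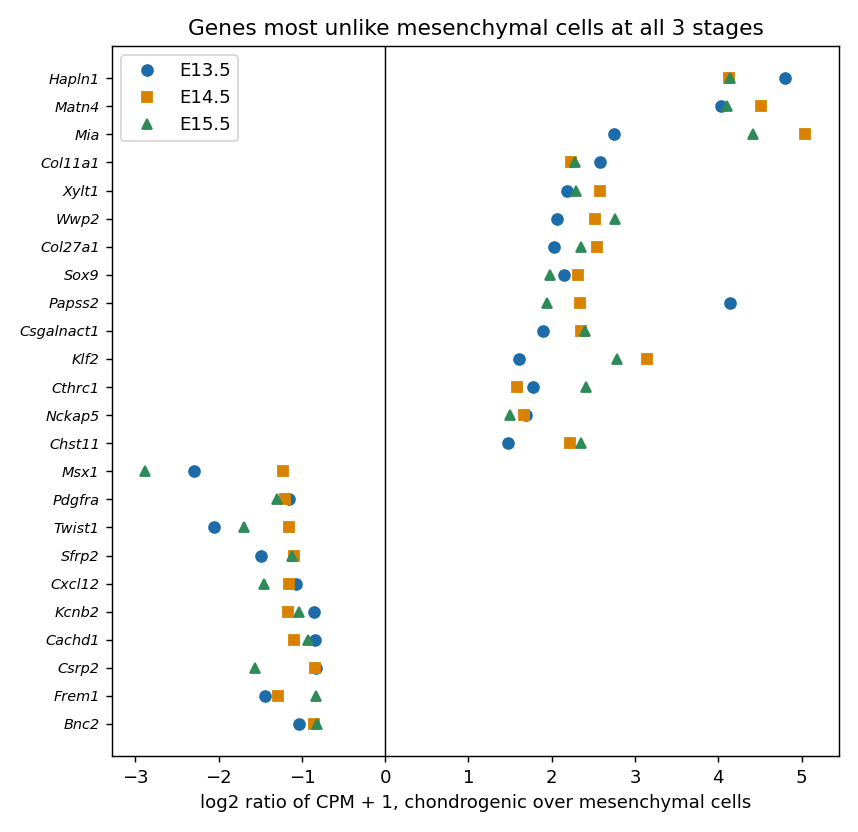
Log2 ratio of CPM (1 CPM added) of chondrogenic over mesenchymal cells at each stage, for 14 of the 15 genes outside the panel with the highest lowest-stage ratio and the 10 with the lowest highest-stage ratio, among genes at 100 CPM in either kind of cell at every stage. Hapln1 and Matn4 lie above 4 at every stage, and Msx1, Pdgfra and Twist1, at the other end, belong to the markers that chose the mesenchymal cells.

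Among genes at 100 CPM in either kind of cell at every stage, those ranked highest over mesenchymal cells were mostly of the fixed cartilage lists. Of the 15, 11 belong to those lists (Hapln1, Matn4, Mia, Col11a1, Col27a1, Sox9, Wwp2, Papss2, Xylt1, Csgalnact1 and Chst11). Among the others were Cthrc1, a secreted collagen repeat protein, at 205, 131 and 221 CPM against 59.2, 43.3 and 40.7 CPM, Nckap5 at 389.7, 243 and 179 CPM against 120.4, 76.1 and 62.7 CPM, and Klf2, described with the early response genes. At the other end, Cxcl12, a chemokine of stromal cells, stood at 62.3, 89.3 and 85.4 CPM against 133, 201 and 236 CPM, the actin-associated Csrp2 at 108, 103 and 69.9 CPM against 194, 186 and 209 CPM, the matrix protein Frem1 at 58.0, 82.3 and 151 CPM against 160.2, 203 and 271 CPM and the zinc finger factor Bnc2 at 340.3, 842 and 765 CPM against 698, 1518 and 1348 CPM. Kcnb2 and Cachd1 were also lower at all 3 stages, with 160.2, 117 and 113 CPM against 291, 264 and 232 CPM and 131, 144 and 175 CPM against 236, 309 and 334 CPM. The lower ranking changed when cells over 20000 UMIs were left out of both sets, since 4 of its 10 genes (Msx1, Twist1, Cxcl12 and Sfrp2) remained, and Csrp2, Frem1, Bnc2, Kcnb2 and Cachd1 were not among the 10 lowest. Of the 15 highest, 12 remained, and Cthrc1, Nckap5 and Chst11 did not.

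The SOX trio was present at all 3 stages. Sox9 (chromosome 11, 112782224 to 112787760, plus strand) stood at 315 (284 to 349), 409.7 (359 to 466) and 276 (215 to 348) CPM, against 70.4, 81.3 and 68.9 CPM in mesenchymal cells, with ratios of 4.48 (3.45 to 5.88), 5.04 (4.00 to 6.39) and 4.00 (2.99 to 5.31). Sox5 (chromosome 6, 143828425 to 144781977, minus strand) stood at 912, 867 and 695 CPM against 358, 189 and 144 CPM, and Sox6 (chromosome 7, 115470872 to 116038796, minus strand) at 859.9, 1098 and 1002 CPM against 386, 412 and 277 CPM. Osteogenic cells held Sox6 at 495, 1225 and 1146 CPM, no lower than the chondrogenic cells at the later stages, whereas their Sox9 was 37.0, 82.1 and 61.0 CPM. Wwp2, a ubiquitin ligase whose gene hosts a microRNA of cartilage, stood at 267, 269.7 and 272 CPM against 63.3, 46.2 and 39.4 CPM and hardly differed between the stages. Nfatc2 stood at 41.6, 94.6 and 117 CPM against 11.2, 14.2 and 13.7 CPM. Barx1, a homeobox factor of facial mesenchyme, was lower than in mesenchymal cells, with 53.7, 85.8 and 31.1 CPM against 208, 128 and 149.9 CPM. Over the transcription list, 4 of 7, 4 of 7 and 5 of 8 genes at 100 CPM were at least 2-fold higher than in mesenchymal cells and 1, 0 and 1 at least 2-fold lower, with medians of 1.25, 0.82 and 1.48. Against osteogenic cells the list's medians were 0.80, -0.13 and 0.16. Its stage medians were 0.30 from E13.5 to E14.5 and 0.01 from E14.5 to E15.5, with 0 genes past 2-fold in either direction. Sox9 had a ratio of E14.5 to E13.5 of 1.30 (1.10 to 1.54), Col11a1 1.94 (1.81 to 2.08) and Col11a2 7.38 (5.78 to 9.49). Without cells carrying neuronal markers the log2 ratio of Sox9 turned from 0.38 to -0.30, and the transcription list's median from 0.30 to -0.28. In those cells the list's medians over mesenchymal cells were 2.88 at E13.5 and 0.39 at E14.5.

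Enzymes that build the sulphated side chains of aggrecan formed a further part of the pattern. Papss2, which makes the sulphate donor, stood at 107, 228 and 245 CPM against 5.10, 44.0 and 62.7 CPM in mesenchymal cells. Xylt1, which starts the chain on the core protein, stood at 147, 291 and 284 CPM against 31.6, 47.7 and 57.3 CPM. Csgalnact1, which begins the chondroitin part, stood at 105, 387 and 373 CPM against 27.5, 75.3 and 69.7 CPM, and the chondroitin sulphotransferase Chst11 at 149.8, 243 and 272 CPM against 53.0, 51.5 and 52.3 CPM. Without cells over 20000 UMIs Papss2 stood at 162 and Csgalnact1 at 161 CPM at E13.5. The sulphate transporter Slc26a2 stood at 32.9, 80.5 and 85.4 CPM against 12.2, 16.4 and 12.0 CPM. Of the list, 4 of 6, 6 of 8 and 6 of 8 genes at 100 CPM were at least 2-fold higher than in mesenchymal cells and 0 lower, with medians of 0.57, 0.67 and 0.53. Against osteogenic cells the list's medians were 1.28, 0.17 and 0.42. The heparan sulphate polymerase Ext1 and the chondroitin synthase Chsy3 did not follow the same pattern, with 497, 489 and 749.6 CPM against 522, 559 and 575 CPM and 132, 249 and 311 CPM against 136, 358 and 375 CPM. Between stages the list's median was 0.80 from E13.5 to E14.5, close to the 0.76 of mesenchymal cells, and 0.10 from E14.5 to E15.5.

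Genes of collagen processing and secretion were mostly within 2-fold of mesenchymal cells. Of those at 100 CPM, 1 of 7, 1 of 8 and 0 of 10 were at least 2-fold higher and 0, 0 and 1 lower, with medians of 0.21, 0.47 and 0.32. Serpinh1, the collagen chaperone, stood at 183, 751 and 718 CPM against 154, 468 and 469 CPM in mesenchymal cells. Plod2, a lysyl hydroxylase, stood at 432, 548 and 435 CPM against 181, 253 and 275 CPM (650 CPM at E13.5 without cells over 20000 UMIs), and the prolyl hydroxylase subunits P4ha1 and P4hb at 100.4, 256 and 303 CPM and 141, 278 and 252 CPM. Creb3l2, a transcription factor of secretory capacity in chondrocytes, stood at 107 (164 without cells over 20000 UMIs), 217 and 245 CPM against 62.2, 140.2 and 138 CPM. The list's median was 0.98 from E13.5 to E14.5 in chondrogenic cells and 1.02 in mesenchymal cells, and -0.02 and 0.07 from E14.5 to E15.5. Without cells carrying neuronal markers the first of these was 0.37.

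The cartilage genes Col11a2 and Hapln1, outside the panel, were higher in cells with more panel genes, and Sox9 less evenly. At E14.5 Col11a2 stood at 16.9, 62.9, 321 and 1539 CPM in cells with 2, 3 to 4, 5 to 6 and 7 to 8 panel genes. Hapln1 stood at 33.8, 40.0, 149 and 1277 CPM and Sox9 at 157, 149, 306 and 922 CPM. At E13.5 the same sequence was 7.25, 24.9, 93.9 and 332 CPM for Col11a2, 32.6, 56.1, 296 and 1134 CPM for Hapln1 and 154, 199.6, 385 and 825 CPM for Sox9, and at E15.5 it was 9.43, 30.2, 387 and 1242 CPM, 14.1, 45.3, 516 and 708 CPM and 132, 83.0, 541 and 453 CPM. Cells with 3 to 4 panel genes thus lay nearer to cells just outside the limit than to cells with 7 to 8 in these 3 genes at each stage. At E15.5 their Sox9 was 83.0 CPM, beside 68.9 CPM in mesenchymal cells, but 1 UMI was worth 7.54 CPM there. This value rested on few UMIs, and the 132564 UMIs of that group fell to 68423 without its 1 cell over 20000 UMIs. The levels of Col11a2 and Hapln1 thus fitted the label chondrogenic better in cells with at least 5 panel genes than in cells with 3 or 4. Neuronal markers did not set these cells apart at E13.5, where at least 3 of them were seen in 37 of 84 cells with 3 to 4 panel genes, 19 of 43 with 5 to 6 and 5 of 18 with 7 to 8, at summed levels of 2167, 2175 and 1352 CPM. Snorc stood at 0, 5.71, 86.2 and 411 CPM at E14.5. Col1a1, the type I collagen of fibrous tissue and bone, ran the other way at the later stages, with 2387, 2039.8, 1262 and 972 CPM at E14.5 and 3146, 3131, 1495 and 1115 CPM at E15.5, and at E13.5 it stood at 138, 161, 106 and 34.4 CPM.
Without cells over 20000 UMIs, Hapln1 in cells with 3 to 4, 5 to 6 and 7 to 8 panel genes stood at 83.5, 511 and 1134 CPM at E13.5, 48.4, 301 and 1277 CPM at E14.5 and 87.7, 516 and 708 CPM at E15.5. The order of the 3 groups of cells was unchanged for Hapln1. The early response and stress list, described below, also differed with the number of panel genes. With all cells counted it summed to 1779, 1463 and 3127 CPM with 2 panel genes and to 7662, 7746 and 7755 CPM with 7 to 8. The steps were uneven at E15.5, where cells with 5 to 6 held 1856 CPM. The part of this in the order of the cartilage genes was not tested.

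**Figure D4:**
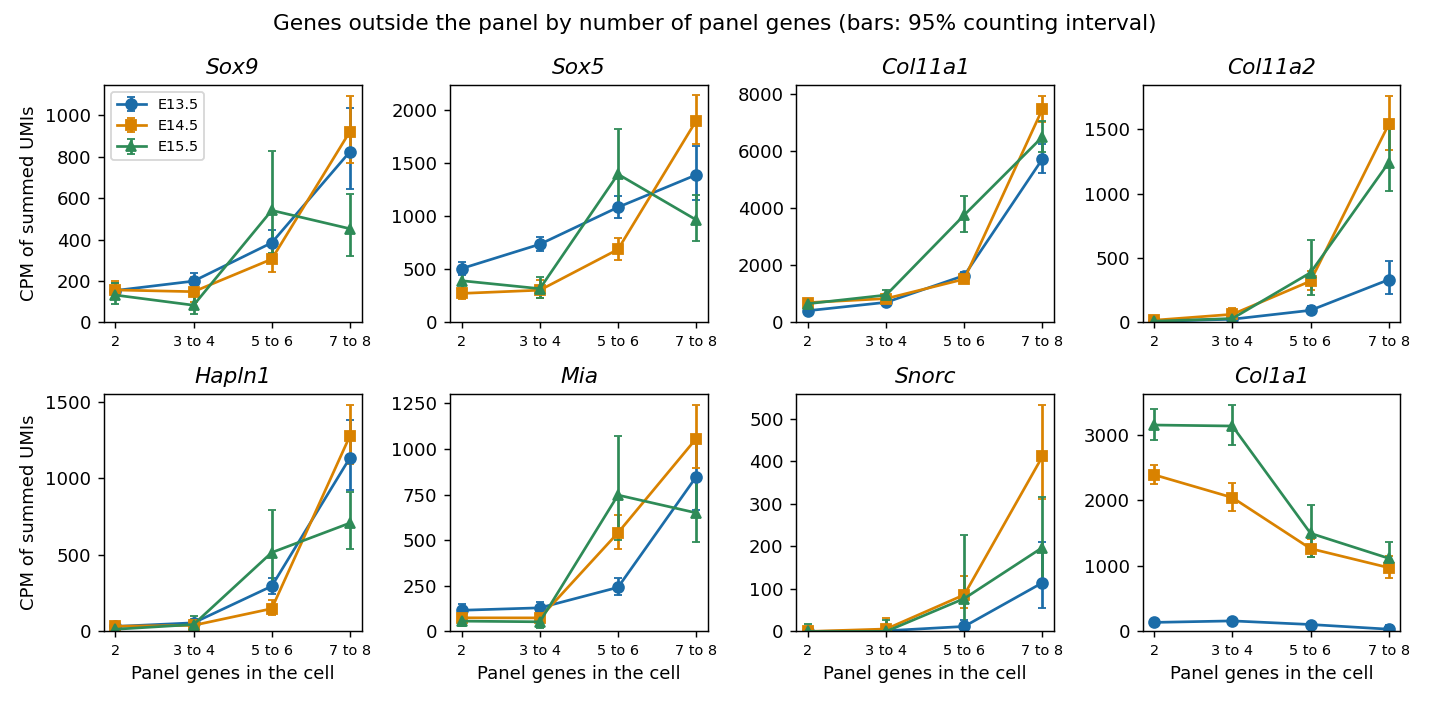
CPM of summed UMIs of 8 genes outside the panel in cells with 2 (not chondrogenic), 3 to 4, 5 to 6 and 7 to 8 panel genes, 1 line per stage, with exact 95% Poisson intervals. Sox9, Hapln1 and Col11a2 are highest in cells with 7 to 8 panel genes at E13.5 and E14.5, and Col1a1 is lowest there at each stage.

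Cells with 7 to 8 panel genes allow the stages to be set side by side at a like number of panel genes, in 18, 40 and 19 cells. Col11a2 stood at 332 (222 to 477), 1539 (1341 to 1758) and 1242 (1018 to 1501) CPM, so its lower level at E13.5 was also seen here. Hapln1 stood at 1134 (922 to 1380.5), 1277 (1097 to 1478) and 708 (542 to 909.7) CPM, and its intervals at E13.5 and E14.5 overlap. Sox9 stood at 825 (645 to 1039), 922 (770.5 to 1095) and 453 (322 to 619) CPM, lowest at E15.5. Col11a1 stood at 5727 (5236 to 6251), 7477 (7032 to 7942) and 6501 (5974 to 7063) CPM.

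Genes of fibrous tissue and perichondrium, the sheath around cartilage, had medians below 0 against mesenchymal cells and were mostly higher at the later stages in both kinds of cell. Of 13, 19 and 21 genes at 100 CPM, 9, 4 and 4 were at least 2-fold lower than in mesenchymal cells and 0 higher, with medians of -1.10, -0.67 and -0.70. Prrx1, Prrx2, Twist1, Twist2, Pdgfra and Lum of this list are among the markers that chose the mesenchymal cells, so their direction was fixed. Without these 6 genes (a count added after seeing the data), 5 of 9, 0 of 14 and 2 of 16 genes were at least 2-fold lower and the medians were -1.04, -0.45 and -0.60. Col1a1 stood at 131 (111 to 153), 1429 (1332 to 1530.4) and 2209.8 (2032 to 2399) CPM, against 329.5, 2662 and 3352 CPM in mesenchymal cells. Col3a1 stood at 148, 693 and 835 CPM against 353, 1159 and 1388 CPM and Postn, a matrix protein of perichondrium and periosteum, at 90.9, 566 and 913 CPM against 214, 1008 and 1472 CPM. Sparc, a collagen-binding glycoprotein, was higher in chondrogenic cells, with 195, 800.2 and 1142 CPM against 175, 505 and 742 CPM. Between E13.5 and E14.5, 14 of 15 genes at 100 CPM were at least 2-fold higher and 0 lower, where 9.12% of 2578 genes were higher and 7.49% lower. The median was 1.92 beside 1.52 in mesenchymal cells. Without cells carrying neuronal markers the chondrogenic median was 1.20, and in the cells without markers of another cell type it was 0.60. At least 3 of the 8 mesenchymal markers were seen in 30 of 145, 30 of 101 and 17 of 49 chondrogenic cells, at summed levels of 444, 1087 and 1115 CPM. The part of these cells in the stage difference was not tested. Between E14.5 and E15.5 the medians were 0.23 and 0.26.

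Genes of hypertrophic cartilage were scarce. Col10a1, the collagen of hypertrophic chondrocytes, had no UMI in any chondrogenic cell at E13.5 and E15.5 and was seen in 1 cell at E14.5. A count of 0 allows up to 2.60 CPM at E13.5 and 11.7 CPM at E15.5 (3 UMIs of the total). Ihh, the hedgehog ligand of prehypertrophic cells, was seen in 6, 1 and 0 cells, and Ibsp, a bone matrix protein, in 0, 3 and 2. Runx2, the regulator of bone formation and chondrocyte maturation, stood at 156, 513 and 606 CPM, against 242, 641 and 541 CPM in mesenchymal and 373, 1868 and 1818 CPM in osteogenic cells, which it helped to choose. Alpl, a phosphatase of mineralising cells, stood at 5.20, 54.3 and 50.5 CPM and in osteogenic cells at 43.6, 300.4 and 284 CPM. Over the list, 1 gene (Runx2) of 2 at 100 CPM was at least 2-fold higher at E14.5 than at E13.5, where 9.12% of 2578 genes were. The medians were 1.28 and 0.14, where mesenchymal cells had 0.96 and -0.13. Without cells over 20000 UMIs the first of these medians was 0.67, and with each cell weighted equally it was 0.31. In the 56, 26 and 16 cells without markers of another cell type, both it and the log2 ratio of Runx2 were -0.54.

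Receptors and antagonists of growth factors were compared next. Bmpr1b, the Bmp receptor of condensing cartilage, stood at 292 (261 to 325), 154 (124 to 189.8) and 128 (88.2 to 180.0) CPM, against 127, 66.4 and 70.2 CPM in mesenchymal cells, and was highest at E13.5 in both. The extracellular Bmp regulator Bmper stood at 189, 126 and 97.1 CPM against 75.5, 52.9 and 60.6 CPM, but at E15.5 56.0% of its UMIs came from 1 cell. Smad7 stood at 27.7, 77.0 and 38.8 CPM and the Bmp target Id1 at 76.2 and 82.3 CPM at E13.5 and E14.5, with 4 UMIs at E15.5. The Bmp list had medians of 0.11 and -0.25 over the 2 intervals between stages, with 0 of 7 genes at 100 CPM past 2-fold in the first and 1 of 8 (Id3) at least 2-fold lower in the second, where 3.68% of all genes were. With cells over 20000 UMIs left out, 2 of 7 were lower in the second and the first median was -0.13. Fgfr3, the Fgf receptor of proliferating chondrocytes, stood at 32.0, 35.0 and 46.6 CPM from 37, 20 and 12 UMIs, against 5.10, 5.97 and 2.49 CPM. Fgfr1 and Fgfr2 stood at 71.9, 137 and 241 CPM and 230.3, 245 and 318 CPM, against 90.8, 184 and 193 CPM and 131, 199.9 and 224 CPM. The Fgf list had medians of 0.73 and 0.32.

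The kinase Prkg2, which carries natriuretic peptide signals in growth cartilage, stood at 79.7, 57.8 and 50.5 CPM against 21.4, 11.9 and 8.72 CPM in mesenchymal cells. The hedgehog receptor Ptch1 stood at 104, 212 and 175 CPM, with no excess over mesenchymal cells (141, 242 and 194 CPM), and without cells over 20000 UMIs at 107, 126 and 155 CPM. That list had medians of 0.66 and -0.12. Among Wnt genes, the antagonist Sfrp2 stood at 90.1, 345 and 396 CPM, below the 255, 739.8 and 862 CPM of mesenchymal cells, and Dkk2 at 35.5, 114 (72.1 without cells over 20000 UMIs) and 272 CPM against 76.5, 262 and 418 CPM. Sfrp1 stood at 203, 291 and 237 CPM against 116, 235 and 216 CPM. The Wnt list had medians of 0.71 and 0.20, and in the cells without markers of another type (56, 26 and 16) the first turned to -0.16. In those cells the log2 ratio of Ptch1 from E13.5 to E14.5 was -2.50, where all chosen cells had 1.02. Ccn2, a secreted growth regulator of cartilage, stood at 39.0 (62.5 without cells over 20000 UMIs), 59.5 and 113 CPM against 8.16, 11.9 and 25.7 CPM. Ccn1 stood at 73.6, 199.6 and 190.3 CPM against 40.8, 84.3 and 105 CPM, and the growth factor Igf2 at 252, 786 and 722 CPM against 188, 647 and 668 CPM. The list of Tgfb, Ccn and Igf genes had stage medians of 0.75 and -0.07, and the hypoxia list, with 2 genes at 100 CPM, 0.44 and -0.15.

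Transcription factors that pattern the face had medians below 0 against mesenchymal cells. Msx1, a marker that helped to choose the mesenchymal cells, stood at 34.6, 80.5 and 35.0 CPM against 174, 190.2 and 264 CPM. Pax9, a paired-box factor, stood at 17.3, 78.8 and 69.9 CPM against 59.2, 142 and 181 CPM, from 20, 45 and 18 UMIs in 13, 20 and 8 cells. Shox2, a factor of the anterior palate, stood at 34.6, 56.0 and 85.4 CPM against 80.6, 154 and 254 CPM. Of 4, 8 and 8 genes at 100 CPM, 2, 3 and 3 were at least 2-fold lower and 0 higher, with medians of -0.68, -0.71 and -0.84. Without Msx1 and Osr2, which helped to choose the mesenchymal cells, 1 of 3, 2 of 7 and 2 of 7 were at least 2-fold lower, with medians of -0.64, -0.65 and -0.77. When cells over 20000 UMIs were left out, 5 of 8 genes of the whole list were at least 2-fold lower at E14.5. Between stages the list's medians were 1.06 and -0.08. Foxp2, a forkhead factor also present in neurons, was highest at E13.5 in both kinds of cell, with 752, 387 and 252 CPM against 728, 439 and 186 CPM.

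RNA of dividing cells was higher at E14.5 than at E15.5 in the chosen cells as a whole. The median of the G2 and M phase list did not show this in the fewer cells that carried no other cell type's markers. In cells with 7 to 8 panel genes that list summed to 699, 2582 and 418 CPM. After thinning to 1500 UMIs its median of E15.5 over E14.5 was -2.84. Top2a, the topoisomerase of dividing cells, stood at 403 (367 to 441), 686 (620.1 to 758) and 334 (267 to 412) CPM, against 526, 472 and 433 CPM in mesenchymal cells. Mki67 stood at 108, 189 and 73.8 CPM against 129.6, 113 and 129.9 CPM, Nusap1 at 101, 221 and 101 CPM against 138, 154 and 99.2 CPM and Cenpf at 186, 249 and 77.7 CPM against 234, 155 and 163 CPM. Of the G2 and M phase genes at 100 CPM, 6 of 7 were at least 2-fold lower at E15.5 than at E14.5, where 3.68% of 2555 genes were. At least 2-fold higher at E14.5 than at E13.5 were 2 of 7, where 9.12% of 2578 genes were (6 of 10, with a median of 1.14, without cells over 20000 UMIs). The list's medians were 0.82 and -1.05, and in mesenchymal cells -0.28 and -0.12. Without cells carrying markers of another cell type, globins not counted (82, 79 and 35 chondrogenic cells remained, an alternative added after seeing the data), the median of E15.5 over E14.5 was -0.07 (-1.47 to 0.79), and with globins counted (56, 26 and 16 cells) it was 0.21 (-2.74 to 2.93). Both ranges, made of the medians of the genes' interval limits, hold the -1.05 of all chosen cells. In the latter cells the log2 ratios of E15.5 to E14.5 turned to 0.75 for Top2a, 0.0311 for Mki67 and 1.38 for Nusap1. After thinning to 1500 UMIs, at least 3 of the 17 genes were seen in 30 of 129 (23.3%, 16.3 to 31.5), 24 of 74 (32.4%) and 3 of 37 (8.11%, 1.70 to 21.9) chondrogenic cells, and unthinned in 44.1%, 36.6% and 22.4%. In mesenchymal cells the thinned counts were 37 of 146 (25.3%, 18.5 to 33.2), 53 of 314 (16.9%, 12.9 to 21.5) and 75 of 527 (14.2%, 11.4 to 17.5). Among chondrogenic cells the share at E15.5 rests on 3 cells, and the interval at E13.5 overlaps both others. Shallower cells left out of the thinned shares numbered 16, 27 and 12. The S phase list had medians of 0.08 and -0.52, and none of its genes reached 100 CPM, so none could be called. In the cells without markers of another type the medians were -1.44 and 0.87. When cells over 20000 UMIs were left out, 2 of its genes (Mcm4 and Cdca7) reached 100 CPM, and both passed 2-fold between E13.5 and E14.5, with the lower level at E14.5.

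Some immediate early and stress genes were higher at the later stages in all chosen cells, and the step from E14.5 to E15.5 depended on which cells were counted. In cells with 7 to 8 panel genes the list's summed level was alike at the stages, at 7662, 7746 and 7755 CPM. Of the list's genes at 100 CPM, 3 of 11 were at least 2-fold higher at E14.5 than at E13.5 (5 of 11 without cells over 20000 UMIs) and 5 of 14 from E14.5 to E15.5, with 0 lower in either interval. Over all genes, 9.12% of 2578 were higher and 7.49% lower in the first interval, and 4.46% of 2555 and 3.68% in the second. Fos stood at 376, 685 and 823 CPM against 213, 209 and 578 CPM in mesenchymal cells, Egr1 at 546, 914 and 847 CPM against 362, 419 and 631 CPM and Junb at 41.6, 131 and 171 CPM against 29.6, 40.3 and 107 CPM. Klf2 stood at 172 (269 without cells over 20000 UMIs), 159 and 435 CPM against 56.1, 17.2 and 62.3 CPM, but 59 of its 112 UMIs at E15.5 came from 1 cell. The list's median was 0.80 from E13.5 to E14.5 and 0.60 from E14.5 to E15.5, and in mesenchymal cells 0.01 and 1.15. With each cell weighted equally the chondrogenic medians were 1.57 and -0.05. In cells without markers of another type the median from E14.5 to E15.5 turned to -0.72, and with globins not counted it was 0.10. The log2 ratio of Klf2 from E14.5 to E15.5 turned from 1.44 to -0.16 in the former cells, and that of Fos from E13.5 to E15.5 from 1.13 to -0.0238 after thinning to 1500 UMIs. These genes respond to handling of tissue, and the part of dissociation in their levels was not tested.

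**Figure D5:**
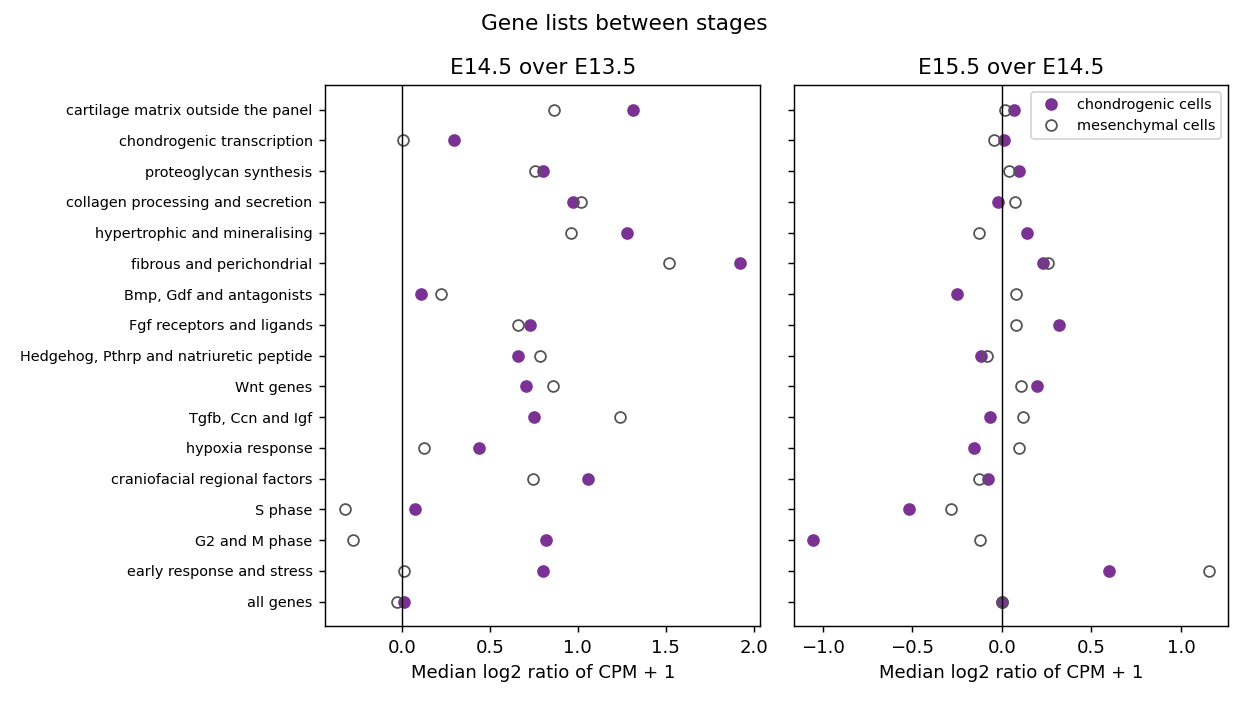
Median log2 ratio of CPM (1 CPM added) of each gene list, E14.5 over E13.5 (left) and E15.5 over E14.5 (right), in chondrogenic (filled) and mesenchymal cells (open), with all genes in the last line. The fibrous list lies farthest right in the left panel in both kinds of cell (1.92 and 1.52), and the G2 and M phase list lies farthest left in the right panel in chondrogenic cells (-1.05).

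Over all genes, more passed 2-fold between E13.5 and the later libraries than between E14.5 and E15.5 when all chosen cells were summed. Of 2578 genes at 100 CPM in the higher stage, 9.12% (235) differed 2-fold or more with the higher level at E14.5 and 7.49% (193) with the higher level at E13.5. For E15.5 against E13.5 the shares higher and lower were 15.2% (416) and 10.6% (289) of 2737 genes, and for E15.5 against E14.5 4.46% (114) and 3.68% (94) of 2555. The last pair of counts was larger in other settings, with 225 and 204 after thinning to 1500 UMIs, 200 and 168 with each cell weighted equally and 190 and 188 with 2 UMIs asked of each panel gene. In the cells without markers of another type, globins counted (56, 26 and 16), the order turned, with 543 and 506 genes from E13.5 to E14.5 and 845 and 677 from E14.5 to E15.5. Several of the largest differences rested on 1 cell. At E14.5 Clu stood at 1017 CPM with 260 of 581 UMIs from 1 cell and Ptgds at 140.1 CPM with 76 of 80, and at E15.5 Bpifa1, a secretory protein of nasal epithelium, owed all 91 UMIs to 1 cell. F13a1 and Mrc1, genes of macrophages, owed 38 of 44 and 27 of 30 UMIs to 1 cell at E15.5, and Gstm1 36 of 40. Other large differences were spread over cells. Ecrg4, a secreted peptide precursor, stood at 0.866, 87.6 and 209.7 CPM in 1, 12 and 14 cells, against 1.02, 30.6 and 79.7 CPM in mesenchymal cells. Its log2 ratio of E15.5 to E14.5 was -0.0131 in cells with at least 5 panel genes. Ccnb1ip1 stood at 10.4, 180.4 and 276 CPM in 11, 28 and 24 cells against 10.2, 185 and 158 CPM. Matn2, a matrilin also made outside cartilage, stood at 5.20, 31.5 and 151 CPM in 5, 13 and 14 cells against 12.2, 54.4 and 55.6 CPM, so at E15.5 it was higher than in mesenchymal cells and at E13.5 and E14.5 lower.

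Among the genes with the largest excess at E13.5 over the later stages were neuronal genes and embryonic globins. Stmn2, a microtubule regulator of growing neurons, stood at 391, 82.3 and 7.77 CPM in 58, 11 and 1 chondrogenic cells, and at 521, 85.8 and 32.4 CPM in mesenchymal cells. Nrxn3 stood at 2489, 50.8 and 62.1 CPM against 1348, 43.3 and 38.6 CPM and Gad2, an enzyme of inhibitory neurons, at 129, 0 and 3.88 CPM against 62.2, 2.98 and 0.415 CPM. Hbb-y, an embryonic globin, stood at 4339.9, 390.5 and 7.77 CPM against 4175, 90.2 and 1.25 CPM, with 1299 of its 5012 UMIs at E13.5 in 1 cell. Its lower level at E14.5 than at E13.5 depended on the cells, since the log2 ratio was 0.0541 in cells with at least 5 panel genes and 0.80 after thinning to 1500 UMIs. All 4 genes were far lower at the later stages in mesenchymal cells as well. Neuronal markers were seen in 61 of the 145 chondrogenic cells of that library, and their part in these differences was not tested.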

How the data were processed

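The deposited matrices, 1 for each of 3 libraries, hold counts of UMIs by gene and barcode. Per the submitters' processing notes the authors used Cell Ranger 6.1.2 and mm10. Columns of another series numbered 0. Stage came from the labels. Counts were summed over the cells of a set and divided by their total (CPM), with exact Poisson, Clopper-Pearson or conditional binomial 95% intervals, and no test was run with 1 library per stage. A gene was called past 2-fold, on log2 ratios with 1 CPM added, when it reached 100 CPM in the higher set. List medians used genes averaging at least 10 CPM. Genes were named from the panel, from 17 fixed lists when they reached 20 CPM, from the 15 highest and 10 lowest ratios to mesenchymal cells (genes at 100 CPM in either set at every stage), and from the 10 (E15.5 over E13.5) or 5 (adjacent stages) largest stage differences each way. Low list genes were named only as scarce or with their counts. Members and lists were chosen with earlier results of these data known. No barcodes were removed as doublets: Scrublet's automatic threshold called 0, 4 and 1 cells and so had not worked, and leaving out the 109, 25 and 56 highest scores (0.8% per 1000 cells, 5, 3 and 1 of them chondrogenic) was an alternative. Alternatives changed the panel limit, depth, weighting, added CPM and marker-carrying cells. Scripts used Python 3.11.15, numpy 2.4.6, scipy 1.17.1, pandas 2.3.3, scanpy 1.11.5 and matplotlib 3.10.9. The code of the ratio calls was run on simulated independent counts with planted changes. Such counts leave out the clustering of UMIs in single cells, so they do not show how the calls perform on these data. Coordinates are from GRCm38 and promoters from RefSeq on GRCm38.p6. Some genes that the naming rule picked are not reported here.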

Additional observations from a re-analysis of the deposited data

Results flagged for a closer look

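Some cells with under 500 detected genes, which no comparison used, also met the panel rule. They numbered 11 at E14.5, 5 at E15.5 and 2 at E13.5. At E14.5 the 11 cells would add to the 101 counted, and at E15.5 the 5 would add to the 49.

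The median ratio of chondrogenic to mesenchymal cells changed sign between stages for several gene lists, and the 3 with both medians at least 0.25 from 0 are given here. The list of Tgfb, Ccn and Igf genes stood above mesenchymal cells at E13.5 (median log2 ratio 0.29) and below them at E14.5 (-0.45). The hypoxia list stood above them at E14.5 (0.32) and below at E15.5 (-0.36). The G2 and M phase list stood below them at E13.5 (-0.33) and above at E14.5 (0.71). Without cells that carried another cell type's markers the G2 and M phase median at E14.5 was -0.0147, and the hypoxia medians were 3.08 at E14.5 and 0.83 at E15.5, both above 0. With 1 library per stage, none of these differences was tested.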

How the results depend on the processing

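The shares of chondrogenic cells, the counts of genes past 2-fold and the medians of the lists were recomputed under 18 settings, 3 of them (no neuronal markers, globins not counted, no cells over 20000 UMIs) chosen after seeing the data. List medians were judged by the range between the medians of their genes' interval limits, called an interval here. Of 1034 recomputed values, 911 stayed within the counting interval or within 1.5 times of the main one, 118 moved beyond it (5 of these with a change of sign) and 5 turned direction against an interval without 0. A further 85 medians changed sign within their interval. Single genes are listed where a difference of at least 2-fold turned. Medians and gene values are log2 ratios, and the causes of these shifts were not tested. With at least 2 panel genes the share was 6.39, 9.52 and 3.56% at the 3 stages in order. Genes past 2-fold were 70 higher and 43 lower (E15.5 over E14.5). Medians over mesenchymal cells moved to 3.29 for cartilage matrix at E15.5. With at least 4 panel genes the share was 2.84% at E13.5 and 1.21% at E15.5. The counts past 2-fold were 183 lower (E15.5 over E14.5). Stage medians moved to 0.74 for cartilage matrix (E15.5 over E14.5). Relative to mesenchymal cells the medians moved to -1.09 for fibrous at E15.5. With at least 5 panel genes the share was 1.65, 4.23 and 1.17% at the 3 stages in order. Counts beyond 2-fold were 192 lower (E15.5 over E14.5). Between stages the medians moved to 0.61 for cartilage matrix (E15.5 over E14.5). Against mesenchymal cells the medians moved to 3.97 for cartilage matrix at E13.5 and -1.07 for fibrous at E15.5. Gene ratios turned to -0.0131 for Ecrg4 (E15.5 over E14.5) and 0.0541 for Hbb-y (E14.5 over E13.5). With at least 1000 detected genes the share was 5.68% at E13.5 and 7.09% at E14.5. The medians set against mesenchymal cells moved to 2.37 for cartilage matrix at E15.5. With cells thinned to 1500 UMIs the share was 2.94% at E13.5. Genes past 2-fold were 225 higher and 204 lower (E15.5 over E14.5). The medians between stages moved to 1.23 for fibrous (E14.5 over E13.5) and -2.84 for G2 and M phase (E15.5 over E14.5). Medians over mesenchymal cells moved to 3.47 for cartilage matrix at E13.5, 2.16 for transcription at E13.5, -1.92 for fibrous at E13.5, -1.09 for fibrous at E14.5 and -1.62 for G2 and M phase at E15.5. The direction of single genes turned, to -0.0238 for Fos (E15.5 over E13.5) and 0.80 for Hbb-y (E14.5 over E13.5). With 2 UMIs asked of each panel gene the share was 2.00, 4.28 and 1.10% at the 3 stages in order. The counts past 2-fold were 190 higher and 188 lower (E15.5 over E14.5). Relative to mesenchymal cells the medians moved to 3.32 for cartilage matrix at E13.5. Single gene ratios turned to -0.27 for Ecrg4 (E15.5 over E14.5). With Col2a1 taken from the panel the share was 2.90% at E13.5. Counts beyond 2-fold were 156 lower (E15.5 over E14.5). Stage medians moved to 0.61 for cartilage matrix (E15.5 over E14.5) and 1.08 for early response (E15.5 over E14.5). Against mesenchymal cells the medians moved to -1.07 for fibrous at E15.5. Without cells that carried another cell type's markers the share was 5.05% at E13.5. Genes past 2-fold were 543 higher and 506 lower (E14.5 over E13.5), 840 higher and 602 lower (E15.5 over E13.5) and 845 higher and 677 lower (E15.5 over E14.5). Between stages the medians moved to -0.54 for hypertrophic (E14.5 over E13.5), 2.25 for hypertrophic (E15.5 over E14.5), 0.60 for fibrous (E14.5 over E13.5), 0.26 for Hedgehog (E14.5 over E13.5) and -0.16 for Wnt (E14.5 over E13.5). The medians between stages moved to -2.93 for hypoxia (E15.5 over E14.5), -1.44 for S phase (E14.5 over E13.5), 0.87 for S phase (E15.5 over E14.5), 0.21 for G2 and M phase (E15.5 over E14.5) and -0.72 for early response (E15.5 over E14.5). The medians set against mesenchymal cells moved to 4.53 for cartilage matrix at E13.5, 5.12 for cartilage matrix at E15.5, 2.63 for transcription at E13.5, 2.64 for transcription at E14.5 and 2.47 for transcription at E15.5. Medians over mesenchymal cells moved to 1.68 for proteoglycan at E14.5, 1.68 for proteoglycan at E15.5, -1.35 for fibrous at E14.5, -1.32 for Tgfb, Ccn and Igf at E15.5 and 3.08 for hypoxia at E14.5. Relative to mesenchymal cells the medians moved to 0.83 for hypoxia at E15.5, -1.94 for regional factor at E13.5, -2.12 for regional factor at E14.5, -1.37 for G2 and M phase at E13.5 and -0.0147 for G2 and M phase at E14.5. Gene ratios turned to 0.17 for Cenpf (E15.5 over E13.5), -0.00659 for Klf2 (E15.5 over E13.5), -0.16 for Klf2 (E15.5 over E14.5), 0.0311 for Mki67 (E15.5 over E14.5) and -0.22 for Nusap1 (E14.5 over E13.5). The direction of single genes turned, to 1.38 for Nusap1 (E15.5 over E14.5), -2.50 for Ptch1 (E14.5 over E13.5), -0.54 for Runx2 (E14.5 over E13.5) and 0.75 for Top2a (E15.5 over E14.5). With each cell weighted equally the genes past 2-fold were 200 higher and 168 lower (E15.5 over E14.5). Stage medians moved to 0.31 for hypertrophic (E14.5 over E13.5), 1.57 for early response (E14.5 over E13.5) and -0.0512 for early response (E15.5 over E14.5). Against mesenchymal cells the medians moved to 3.43 for cartilage matrix at E13.5, 1.93 for transcription at E13.5, 1.28 for transcription at E14.5, -0.98 for fibrous at E14.5 and -1.42 for regional factor at E13.5. Single gene ratios turned to -0.25 for Ptch1 (E14.5 over E13.5). With 5 CPM added the medians over mesenchymal cells moved to 2.85 for cartilage matrix at E15.5. At a minimum of 50 CPM the genes past 2-fold were 448 higher and 382 lower (E14.5 over E13.5), 795 higher and 589 lower (E15.5 over E13.5) and 296 higher and 271 lower (E15.5 over E14.5). At a minimum of 200 CPM the genes past 2-fold were 107 higher and 100 lower (E14.5 over E13.5), 197 higher and 129 lower (E15.5 over E13.5) and 40 higher and 34 lower (E15.5 over E14.5). Without a minimum level the medians over mesenchymal cells moved to 2.03 for cartilage matrix at E13.5, 3.10 for cartilage matrix at E14.5, 2.36 for cartilage matrix at E15.5 and 0.32 for transcription at E14.5. Without marker-carrying cells, globins not counted the share was 4.99% at E13.5. The counts past 2-fold were 181 lower (E15.5 over E14.5). Between stages the medians moved to 0.43 for collagen processing (E14.5 over E13.5), 1.07 for fibrous (E14.5 over E13.5), 0.32 for Hedgehog (E14.5 over E13.5), -0.0699 for G2 and M phase (E15.5 over E14.5) and 0.10 for early response (E15.5 over E14.5). The medians set against mesenchymal cells moved to 3.65 for cartilage matrix at E13.5, 2.90 for transcription at E13.5 and -1.64 for regional factor at E13.5. Gene ratios turned to 0.18 for Cenpf (E15.5 over E13.5), 0.16 for Nusap1 (E15.5 over E14.5) and -0.0695 for Ptch1 (E14.5 over E13.5). Without cells with neuronal markers the share was 4.86% at E13.5. The medians between stages moved to 0.60 for cartilage matrix (E14.5 over E13.5), -0.28 for transcription (E14.5 over E13.5), 0.37 for collagen processing (E14.5 over E13.5), 1.20 for fibrous (E14.5 over E13.5) and 0.25 for Hedgehog (E14.5 over E13.5). Medians over mesenchymal cells moved to 3.61 for cartilage matrix at E13.5, 2.88 for transcription at E13.5, 0.39 for transcription at E14.5 and -1.68 for regional factor at E13.5. The direction of single genes turned, to -0.0701 for Cnmd (E15.5 over E13.5) and -0.18 for Ptch1 (E14.5 over E13.5). Without cells over 20000 UMIs the medians over mesenchymal cells moved to 3.26 for cartilage matrix at E13.5 and 1.51 for transcription at E13.5. Leaving out the cells with the highest doublet scores or adding 0.5 CPM moved no share, count or list median beyond its interval or 1.5 times. Depth limits the E15.5 values most, since 1 UMI was worth 3.88 CPM there, against 0.866 at E13.5 and 1.75 at E14.5. Leaving out a replicate could not be done with 1 library per stage. No paired analysis was possible because each stage had 1 library and the stages shared only the number of that single replicate.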
